A study of Homo sapiens with 18 samples.

Results

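V5 chromatin occupancy of EHMT1 with both neighbouring lysines replaced by arginine (K450RK451R) was compared with that of EHMT1 with the second lysine alone replaced (K451R). The members were all V5 peaks of the 2 lists, 14799 for K450RK451R and 860 for K451R, together 15659 of the 22458 peaks in the 9 lists of the series. A K450RK451R peak was called shared when it had at least 1 bp in common with a K451R peak, which held for 772, and double-only otherwise, which held for 14027. Of the K451R peaks, 787 were shared and 73 were K451R-only. The comparison asks what the change of the other lysine adds to the places where EHMT1 is found, by chromosome, gene density, gene class and distance to genes.

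Both lines were derived from LNCaP, an androgen-responsive prostate cancer cell line. They carried V5-tagged EHMT1, mutated at K451R or at K450RK451R, on a doxycycline-inducible construct, and both were given 0.5 µg/ml doxycycline for 2 days before chromatin immunoprecipitation with an anti-V5 antibody. No source says that the cells' own EHMT1 was removed, and whether a line was 1 clone is not given in the sources used here. Each group had 2 replicates but 1 peak list, and whether that list came from both replicates or from 1 is not stated. The values below thus have no replicate error, and no test over replicates was run. The 95% intervals below cover counting error only. Peak lists hold no expression values, so the cell type was not checked against markers.

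EHMT1, also called GLP, and its partner EHMT2 methylate lysine 9 of histone H3, and the dimethyl mark that they leave (H3K9me2) is typical of silent chromatin. EHMT1 does not bind DNA by itself and is brought to its sites by other proteins, among them REST, which represses neuronal genes in other tissues through a DNA element named RE1, and E2F6 in a Polycomb complex. Satellite repeats such as runs of ATTCC fill much of the chromatin around centromeres.

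The sequences under some leading peaks are shown for comparison, and they do not represent their sets: 73.5% of double-only windows held a 24-mer found at least 1000 times in the genome, a kind not shown here, and the RE1 core was in 38 of 14012. Each is a stretch of the GRCh37 (hg19) plus strand reaching 50 bp to either side of the peak summit, at a peak with a high −log10 q (minus the logarithm of the peak caller's q-value) that lies outside annotated untranslated regions. The first 4 are the highest of their kinds. In the first 3 the capitals mark the 24 bases with the most copies in the genome. In the last 2 they mark an RE1 core, AGCACCNNGGACAG on the plus strand, and the last window was chosen after its sequence was seen.
Double-only upstream of a coding gene start, TAF11L13, chr5:17631608-17631708: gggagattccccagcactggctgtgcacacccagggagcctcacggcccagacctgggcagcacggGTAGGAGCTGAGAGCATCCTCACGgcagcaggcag
Shared, intron of SENP5, chr3:196625660-196625760: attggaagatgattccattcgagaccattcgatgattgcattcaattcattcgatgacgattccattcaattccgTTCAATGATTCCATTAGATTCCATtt
K451R-only, in no gene, chr10:42399411-42399511: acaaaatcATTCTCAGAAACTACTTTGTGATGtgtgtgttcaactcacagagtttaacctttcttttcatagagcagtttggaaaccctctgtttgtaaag
Double-only without a high-copy 24-mer, coding exon of IQSEC3, chr12:176319-176419: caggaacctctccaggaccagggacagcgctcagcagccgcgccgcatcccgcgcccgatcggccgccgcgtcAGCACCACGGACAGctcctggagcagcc
Double-only, coding exon of XKR7, chr20:30556355-30556455: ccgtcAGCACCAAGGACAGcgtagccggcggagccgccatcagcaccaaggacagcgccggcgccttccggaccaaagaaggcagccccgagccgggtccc

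The 24 capitals at TAF11L13, a copy of a repeated gene on chromosome 5, occurred 15 times in the genome. The capitals at SENP5 occurred 26 times and lay among repeated ATTCC units. In a wider window, reaching 100 bp to either side of the SENP5 summit, the commonest 24-mer had 50677 copies. The K451R-only capitals occurred 397 times. The XKR7 window held another exact RE1 core, left in lower case, after the marked one.

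The double-only peaks were weak and numerous, and the shared peaks were few and strong. From the deposited fold enrichment and −log10 p, the whole number of fragments over each summit was solved for every peak. Fold enrichment was taken as the ratio of fragments at the summit to those in the local background. A constant was added to both terms of that ratio, which lowers the fold most where counts are low. The median was 9 fragments for double-only and 50 for shared peaks, over median backgrounds of 0.9 and 4.325. Median fold enrichment was 4.89 (quartiles 4.37 and 5.43) against 7.13 (4.65 and 10.1), and median −log10 q was 3.05 against 19.96. Of the double-only peaks, 77.6% had at most 10 fragments, as had 0.648% of the shared peaks.

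The double-only peaks were thus the part of the list nearest to the limit of detection, and the 2 lists differed in depth. The genome-wide background corresponded to 22.7 M (mega) reads for K450RK451R and 14.1 M for K451R, a ratio of 1.61. When the pileup and background of each double-only peak were scaled to the K451R reads, 3849 of 14027 (27.4%, 95% Wilson interval 26.7 to 28.2) still reached 5.48, the lowest −log10 p in the K451R list, whereas 758 of 772 shared peaks (98.2%) did. The 4607 K450RK451R peaks callable at K451R reads were 5.36 times the K451R list, and the full lists differed 17.2 times. Among the 860 strongest peaks of each list, 28.0% of the K450RK451R peaks (25.1 to 31.1) had no K451R peak. The part of other differences between the libraries in the longer list was not tested.

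**Figure D1:**
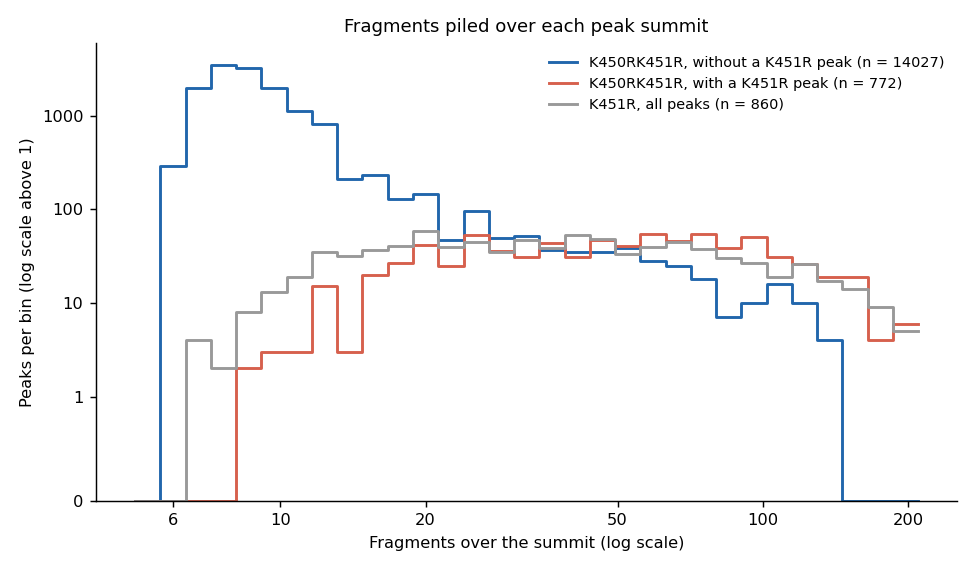
Number of peaks (vertical axis, log scale above 1) by the fragments over the summit (horizontal axis, log scale) for the 14027 double-only peaks, the 772 shared peaks and all 860 K451R peaks. The double-only peaks crowd at the low end with a median of 9 fragments, and the shared peaks spread around a median of 50.

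At the shared peaks the enrichment was at a like level in both lists. Over 794 overlapping pairs the K450RK451R fold was a median of 0.964 times the K451R fold (quartiles 0.868 and 1.08), with medians of 7.12 and 7.22, and it was the higher one in 314 pairs. The highest shared peak, in an intron of SENP5, a gene of a SUMO protease, had 138 fragments and a fold of 35.8 in K450RK451R and a fold of 41.1 in K451R. The shared peak in an intron of MAN1A1, a gene of a Golgi mannosidase, had folds of 35.3 and 26.3. Of the others of the 5 highest, 2 were in no gene and 1 in a long noncoding RNA (lncRNA) gene, all on chromosome 9, with folds of 20.6, 19.97 and 35.5 in K450RK451R against 21.6, 23.4 and 40.2 in K451R. The windows of the 2 in no gene held no 24-mer found once in the genome, as did 21.0% of all shared windows. Their reads thus cannot be placed with certainty. The commonest 24-mers in the lncRNA and MAN1A1 windows had 2561 and 13230 copies.

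Over whole lists the double-only peaks lay nearer to coding genes, an order that did not hold for the median distance away from assembly gaps (below). The median distance from summit to the nearest protein-coding gene start was 66.5 kb (quartiles 22.7 and 197) for double-only and 339 kb (102 and 746) for shared peaks, and 85.8 kb for positions on a regular grid of 100 kb. Within 1 kb of a coding start were 724 of 14024 double-only peaks on nuclear chromosomes (5.16%, 95% interval 4.81 to 5.54) and 7 of 768 shared peaks (0.911%, 0.442 to 1.87), while 1.29% of the genome's bases lie there. The difference was 4.25 percentage points (95% Newcombe interval 3.23 to 4.85). Of the 724, 242 (33.4%, 30.1 to 36.9) were upstream of the start and the others downstream.

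Further out the double-only peaks followed the genome more closely than the shared peaks did. From 1 to 10 kb lay 8.88% of double-only and 4.69% of shared peaks (10.2% of bases), and from 10 to 100 kb lay 46.0% and 19.3% (42.1% of bases). Beyond 100 kb were 40.0% of double-only and 75.1% of shared peaks (46.4% of bases), a difference of -35.2 points (-38.2 to -31.9). The share of double-only peaks was thus above that of the genome within 1 kb and at 10 to 100 kb, and below it in the other classes.

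The class of gene that held the summit also differed. Double-only peaks were in protein-coding genes in 48.2% (47.4 to 49.0) and shared peaks in 10.5% (8.57 to 12.9), a difference of 37.7 points (35.2 to 39.8), and coding genes cover 45.6% of the bases. Among the double-only peaks callable at the K451R reads, 42.6% (41.0 to 44.2) were in coding genes and 42.0% (40.5 to 43.6) in no gene, so that the side of the genome share on which the double-only peaks lay turned with depth. In lncRNA genes lay 13.9% of double-only and 6.12% of shared peaks (15.2% of bases), and in pseudogenes 1.69% and 2.60% (1.04% of bases), the latter difference with an interval of -2.31 to 0.0257 points. In no gene lay 36.0% of double-only and 80.5% of shared peaks (38.1% of bases). Within coding genes, introns held 6161 double-only peaks (43.9% of all, against 42.7% of bases). Coding exons held 274 (1.95%, 1.74 to 2.20, against 1.23% of bases) and other exons 327 (2.33%, 2.09 to 2.59, against 1.68%). Shared peaks were in coding exons 5 times, in other exons 2 times and in introns 74 times.

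**Figure D2:**
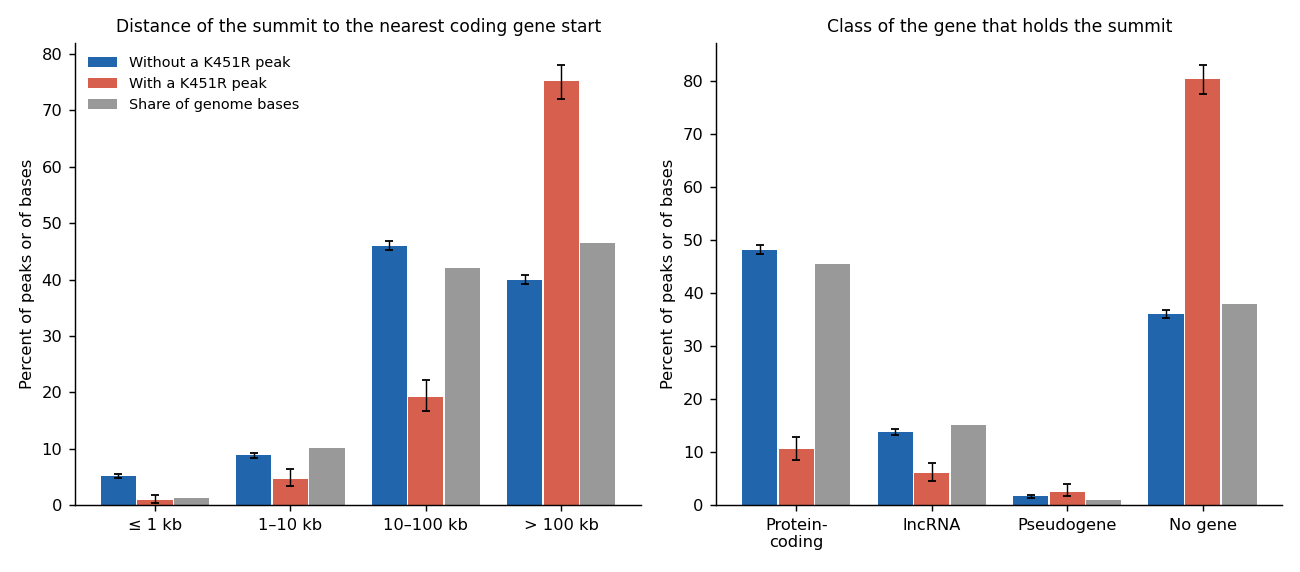
Percent of double-only peaks, of shared peaks and of genome bases by distance of the summit to the nearest protein-coding gene start (left) and by the class of the gene that holds it (right), with 95% Wilson intervals on the peak shares. Double-only bars stand above the genome bars within 1 kb of a start (5.16% against 1.29%) and below them beyond 100 kb (40.0% against 46.4%), and shared peaks are mostly over 100 kb away (75.1%) and in no gene (80.5%).

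These contrasts rested in large part on where the shared peaks were. Within 1 Mb of an assembly gap of at least 10 kb, where centromeres and telomeres lie, were 623 of 768 shared peaks (81.1%) but 2466 of 14024 double-only peaks (17.6%), and 11.0% of bases. Away from gaps, 145 shared and 11558 double-only peaks remained. The share in coding genes there was 39.3% for shared and 52.1% for double-only peaks, a difference of 12.8 points (4.61 to 20.4). The shares within 1 kb of a start were 2.76% and 5.39%, and their difference of 2.63 points had an interval from -1.51 to 4.37. The order of median distances to a coding start turned there, with 37.2 kb for shared and 63.5 kb for double-only peaks, medians given without an interval. Beyond 100 kb were 33.8% (26.6 to 41.8) and 38.1% (37.3 to 39.0), with overlapping intervals. In no gene lay 40.7% (33.0 to 48.8) of shared and 32.6% (31.7 to 33.5) of double-only peaks, and in lncRNA genes 16.6% (11.4 to 23.4) and 14.2% (13.6 to 14.9).

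The sequence of the summit windows, which the overlap rule had not used, differed between the whole sets, in a direction that turned among the strongest peaks. Within windows reaching 100 bp to either side of the summit, a 24-mer found at least 1000 times in the genome was present in 73.5% of double-only windows (72.7 to 74.2), 47.9% of shared windows (44.4 to 51.5), 40.0% of K451R-only windows and 21.6% of windows on a regular grid of 100 kb. With a limit of 10000 copies the shares were 53.8% for double-only and 3.26% for shared windows, and with a limit of 100 copies 78.0% and 75.1%. The difference at 1000 copies, 25.5 points, was -17.5 points among peaks with −log10 q ≥ 10 and -13.6 points in lists of equal length. Median GC content was 56.7% in double-only windows and 39.8% in shared windows and on the grid. At least 3 ATTCC units on 1 strand, the satellite sequence seen at SENP5, were in 195 of 766 shared windows (25.5%, 22.5 to 28.7), 17 of 70 K451R-only windows (24.3%), 1.57% of double-only windows and 0.353% of grid windows.

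The repeat-bearing and the other double-only peaks were found in different places. Of the 10292 windows with a high-copy 24-mer, 0.6996% were within 1 kb of a coding start and 4 were in coding exons. Of the 3720 without one, 652 (17.5%, 16.3 to 18.8) were within 1 kb of a coding start and 270 (7.26%, 6.47 to 8.14) in coding exons. Both kinds were in coding genes at like rates, 49.1% and 45.9%. Leaving out all high-copy windows raised the difference between double-only and shared peaks within 1 kb of a start to 16.2 points (14.1 to 17.6).

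Median fold was alike across locations, but most double-only peaks lay near the limit of detection, where medians have little room to differ. Median fold was 4.82 within 1 kb of a coding start, 4.77 in coding exons beyond it, 4.89 in introns, 4.89 in lncRNA genes and 4.89 in no gene, each with a median of 9 fragments. The share callable at the K451R reads did differ. It was 23.5%, 20.4%, 24.5%, 26.4% and 32.2% in the same order. The share with an overlapping peak of endogenous EHMT1 in parental LNCaP cells was 2.47% over all double-only peaks (347 of 14027) and 94.2% over shared peaks (727 of 772). Among double-only peaks it was 3.87% (28 of 724, 2.69 to 5.53) within 1 kb of a coding start, 5.26% (8 of 152) in coding exons beyond it, 0.758% (45 of 5934) in introns and 4.91% (241 of 4909) in no gene. An H3K9me2 peak of the K450RK451R line overlapped 1.19% of double-only and 76.4% of shared peaks. The WT V5 list overlapped 41 double-only peaks (0.292%) and the K450R V5 list 45 (0.321%), against 73.1% and 72.3% of the shared peaks. Each of these lists held fewer peaks than the K450RK451R V5 list, and the part of that in the shares was not tested.

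By chromosome, the double-only peaks were spread thinly over all of the genome. They numbered 4.91 per Mb of sequence in the whole genome and were found in 2758 of 2869 bins of 1 Mb (96.1%), with a median of 4 per bin. Shared peaks were found in 165 bins (5.75%), and the 20 fullest bins held 59.9% of the shared peaks in bins against 4.25% of the double-only peaks. The bin with the most double-only peaks, on chromosome 4 from 49000001 to 50000000, held 87 of them and 40 shared peaks and no coding gene start. The next, on chromosome 8 from 86000001 to 87000000, held 42 double-only and 0 shared peaks with 9 coding starts.

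The order of the chromosomes was not the order of their gene density. Among chromosomes 1 to 22 and X the double-only rate was highest on chromosome 15 (6.23 per Mb, 509 peaks), chromosome 1 (6.04, 1361 peaks) and chromosome 5 (5.83, 1036 peaks), with 7.43, 9.29 and 4.97 coding genes per Mb. It was lowest on X (2.81 per Mb, 425 peaks), 22 (3.32, 116 peaks) and 13 (3.33, 318 peaks), with 5.75, 12.9 and 3.37 coding genes per Mb. Chromosome 19, which has the most coding genes per Mb (26.5), had 3.87 double-only peaks per Mb and ranked at 19 of 24. Over the 24 chromosomes, which share 1 library, Spearman's coefficient of the double-only rate with coding genes per Mb was -0.12 (Pearson's r -0.26), and -0.03 without Y.

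Shared peaks had another order of chromosomes. Y had 2.698 per Mb, 16 had 0.710 and 21 had 0.655, while 13 had 0.0314. The number of double-only peaks for each shared peak ran from 2.19 on Y and 4.95 on 16 to 170 on 15. Spearman's coefficient between the double-only and shared rates was -0.09. On Y, which is rich in repeats, 136 peaks were double-only, 62 shared and 11 of the 73 K451R-only.

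**Figure D3:**
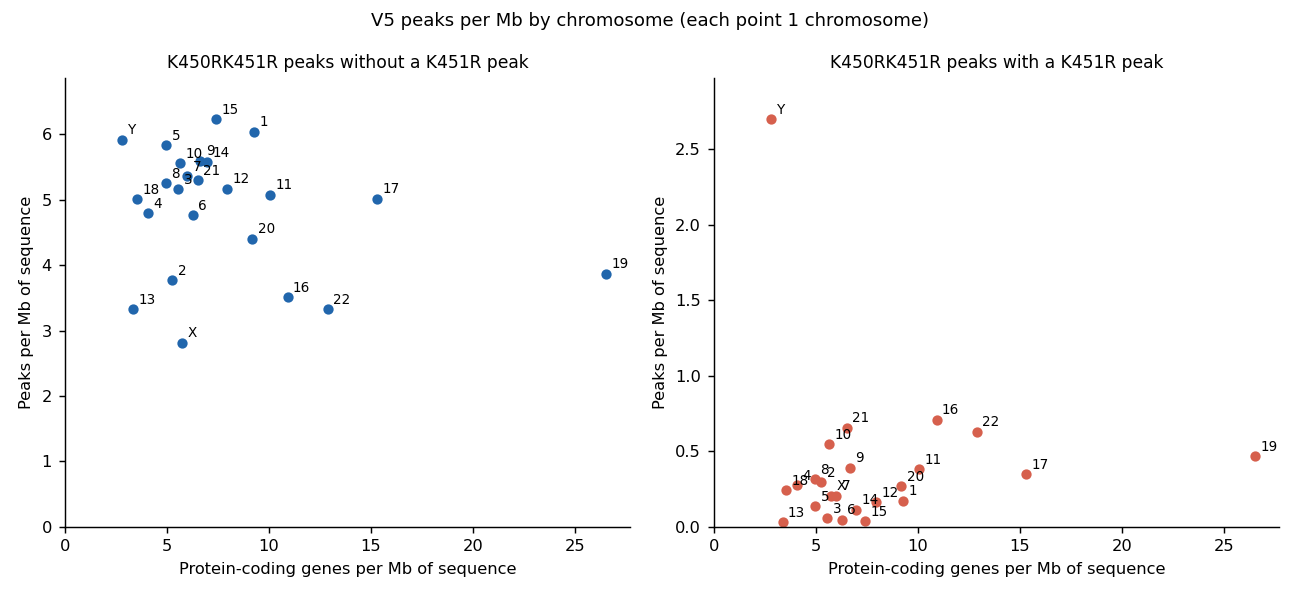
Double-only peaks per Mb (left) and shared peaks per Mb (right) against protein-coding genes per Mb, each point being 1 of 24 chromosomes. The double-only rates lie between 2.81 (X) and 6.23 (15). Of the gene-dense chromosomes, 19, 16 and 22 are in the lower part, and 17 (5.01) and 11 (5.08) are not. Y stands apart for shared peaks at 2.698.

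Below the scale of chromosomes, the rates of both sets differed between classes of gene density, and for the shared peaks the order rested on those near assembly gaps. Bins of 1 Mb were placed in 5 classes by their coding gene starts. The double-only rate was 3.62 per Mb (95% Poisson interval 3.48 to 3.76) in bins with 0 or 1 start and 4.54 with 2 or 3. It was 5.56 with 4 to 6 starts, 5.95 (5.74 to 6.16) with 7 to 11 and 4.84 (4.65 to 5.04) with 12 to 67, so that the rate was highest in bins of intermediate density and lower in the densest. For the shared peaks the class with 0 or 1 start had the highest rate, 0.360 per Mb, and the other classes ranged from 0.111 to 0.184. Away from gaps the order turned, and the shared rate was lowest there, 0.0175 per Mb, and went through 0.0286, 0.0552 and 0.0758 to 0.0889 in the densest class.

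High-copy and other double-only windows contributed unequally to that order. The rate of high-copy windows was 2.91 per Mb in the sparsest class, 4.27 in the fourth and 3.26 in the densest. The rate of other windows was 0.712, 1.68 and 1.57 in the same classes. The grid windows with a high-copy 24-mer went from 16.8% in the sparsest to 29.7% in the densest class. The share of double-only peaks within 1 kb of a coding start went from 0.745% in the sparsest class through 3.06%, 5.05% and 7.68% to 9.14% in the densest.

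Counted around each summit, the median number of coding starts within 500 kb was 5 (quartiles 2 and 9) for double-only peaks, 1 (0 and 5) for shared peaks and 4 (1 and 9) for the grid. No coding start within 500 kb was found for 9.58% of double-only and 44.01% of shared peaks. Away from assembly gaps this order turned, with medians of 5 for double-only and 6 for shared peaks and an interval of the difference from -3 to 0.

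**Figure D4:**
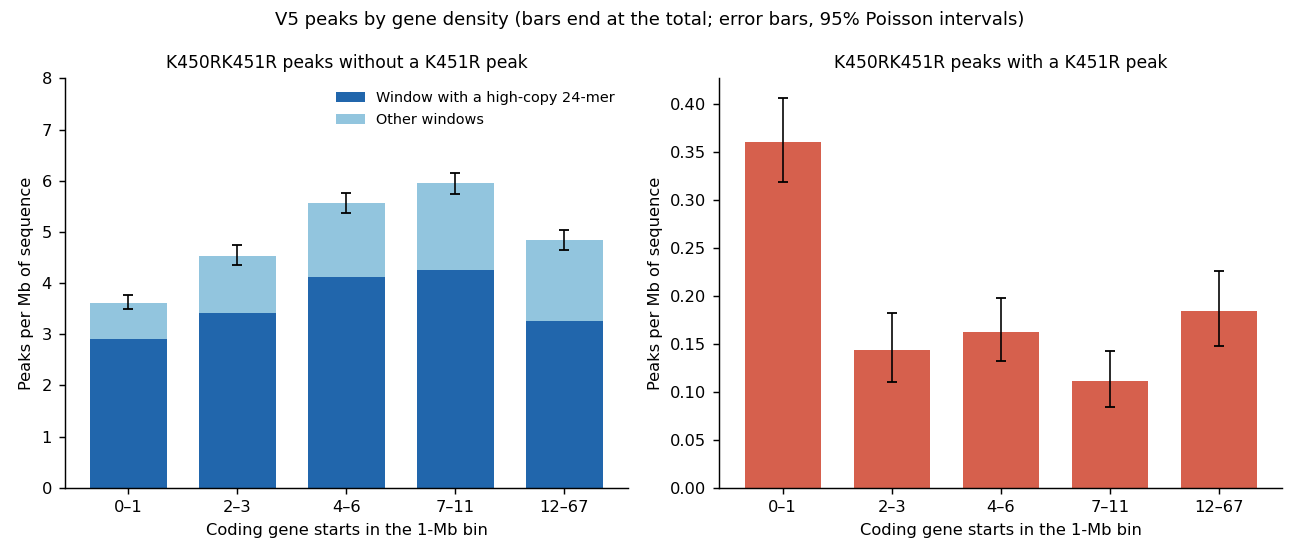
Double-only peaks per Mb (left, split into windows with and without a high-copy 24-mer) and shared peaks per Mb (right) in 1-Mb bins grouped by the number of coding gene starts, with 95% Poisson intervals of the totals. The double-only rate goes from 3.62 in the sparsest bins to 5.95 with 7 to 11 starts and 4.84 in the densest, and the shared rate is highest, 0.360, in the sparsest, an order that turned away from assembly gaps.

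Turned round to genes, 778 of 20163 protein-coding genes (3.86%) had a double-only peak within 1 kb of the start, and 8 (0.0397%) had a K451R peak there. A double-only peak was present in the body of 4239 coding genes (21%), of which 4195 had no K451R peak in the body. Among all 20163 coding genes only 77 had a K451R peak in the body, so that its absence does not set the 4195 apart. The 4239 were long genes, with a median length of 108 kb against 19.04 kb for the others. Over genes in 5 length classes the share with a peak in the body went from 2.41% in the shortest to 59.6% in the longest, while peaks per Mb of gene were between 4.01 and 6.91 with no such order. The share with a peak at the start also went from 2.18% in the shortest to 5.88% in the longest class.

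The strongest double-only peaks at gene starts were at genes of several kinds. IQSEC3, a guanine nucleotide exchange factor of inhibitory synapses, had 43 fragments and a fold of 13.3 with a summit 0.436 kb downstream of its start in a coding exon, where it also overlapped an EHMT1 peak and the wild-type (WT) and K450R V5 peaks. Its window had 5 24-mers found once in the genome, its commonest 24-mer had 3 copies, and a pseudogene on chromosome 20 nearest to PCMTD2 held a double-only peak with a like sequence (fold 10.3), so that its reads cannot be placed with certainty. HTR5A, a serotonin receptor gene, had 29 fragments and a fold of 13.4 with a summit 0.141 kb upstream. CPLX2, which encodes complexin 2 of synaptic vesicles, had 21 fragments and a fold of 9.09. BARHL1, a homeobox gene of neural development, had 22 fragments and a fold of 7.85. All 4 overlapped an EHMT1 peak in parental cells, HTR5A also a K450R V5 peak, and CPLX2 also a WT and a K450R V5 peak. An EHMT1 peak overlapped 28 of all 724 double-only peaks within 1 kb of a coding start (3.87%).

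The other 6 of the 10 highest at starts were less alike. RAB37, a small GTPase gene, had 21 fragments, a fold of 10.5 and an EHMT1 peak. TAF11L13 and TAF11L3, members of a repeated gene family on chromosome 5, had folds of 12.8 and 4.64 over windows whose commonest 24-mers had 15 and 13 copies, so that their reads cannot be placed with certainty. PAXBP1 (fold 9.09), UTP20, a gene of ribosome biogenesis (8.99), and PIP4P2, a phosphoinositide phosphatase gene (8.70), had no EHMT1 peak. PAXBP1's window held a 24-mer with 45474 copies. None of the 10 overlapped an H3K9me2 peak of any of the 4 lines, and few double-only peaks did. The share over all double-only peaks ran from 0.663% for the WT line to 2.23% for the K451R line.

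Elsewhere, the highest double-only peaks after IQSEC3 were in an intron of ZDHHC20, a palmitoyltransferase gene (38 fragments, fold 13.4), in a lncRNA gene on chromosome 21 whose nearest coding gene was TPTE (109 fragments, fold 4.27), and in no gene 308 kb from FAM240C (38 fragments, fold 12.2). Next were introns of UBTD1 (fold 11.1), GAS6, a ligand gene of the TAM receptor kinases (11.5), GALR1, a galanin receptor gene (13.4), and AHRR, the aryl hydrocarbon receptor repressor gene (11.6). The windows of ZDHHC20, the lncRNA gene and AHRR held no 24-mer found once in the genome, as did 32.9% of all double-only windows. Their reads thus cannot be placed with certainty. The windows of UBTD1 and GALR1 held 24-mers with 84667 and 1649 copies. These 7 peaks each overlapped an H3K9me2 peak of the K451R line, as did 2.23% of all double-only peaks (313 of 14027). In coding exons the highest after IQSEC3 were at CDC27, a subunit of the anaphase-promoting complex (fold 9.78), TAF11L3, INSM2, a zinc-finger repressor gene of neuroendocrine cells (7.91, also under a K450R V5 peak), and XKR7 (8.14). CDC27 has copies elsewhere in the genome and also held a shared peak.

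The 5 highest of the 7 shared peaks within 1 kb of a start were at NPAS4, SNX16, CDC27, FAM230A and RGPD2. NPAS4, an activity-regulated transcription factor gene of neurons, had a fold of 13.1 in K450RK451R and 5.58 in K451R. SNX16, a sorting nexin gene, had 15.9 and 8.38, CDC27 12.4 and 8.38, and FAM230A 10.0 and 8.46. The windows of SNX16 and FAM230A held 24-mers with 45474 and 264335 copies. RGPD2, of a duplicated gene family, had the higher fold in K451R, 15.5 against 9.09. The 5 highest K451R-only peaks had folds between 3.43 and 10.5. Of these, 3 were in no gene (nearest ZNF33B, DEFB115 and CWH43) and 1 in a pseudogene of CDC27. The remaining peak was in the chromosome 21 lncRNA gene named above, 1294.5 kb from the start of TPTE. CWH43's was the one that overlapped both the WT and the K450R V5 lists.

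The genes with the most double-only peaks in their body were long. DLGAP2, a postsynaptic scaffold gene of 969 kb, and PTPRN2, a phosphatase-like gene of secretory granules of 1049 kb, held 15 each. PDE4D, a cAMP phosphodiesterase gene, held 14 over 1553 kb. ADGRV1, an adhesion receptor gene, and TBC1D5, of retromer traffic, held 13 each. SMYD3, a lysine methyltransferase gene, held 12, and DIP2C and GPHN, which encodes the synaptic scaffold gephyrin, 11 each. NOTCH2, RABGAP1L and SDK1 also held 11 and were tied with the last of these. Per 100 kb the 8 genes held 0.901 to 2.65 peaks, while NOTCH2, near the centromere of chromosome 1 and with close copies, held 5.81. PTPRN2 and GPHN each had 1 K451R peak in the body and the other 6 had none, where only 77 of all 20163 coding genes had one.

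Of the gene groups, REST target genes stood highest in the share with a double-only peak at the start, 9 of 38 (23.7%, 95% interval 13.0 to 39.2) against 3.86% of all coding genes. The 4 with the highest −log10 q were HTR5A and CPLX2 (above), SYP, the synaptic vesicle protein synaptophysin (11 fragments, fold 5.94), and CHGB, a chromogranin of secretory granules (10 fragments, fold 5.98). None of the 38 had a K451R peak at the start, where only 8 of all 20163 coding genes (0.0397%) had one and no member of the other groups did. Of the 9 double-only peaks, 6 overlapped a parental EHMT1 peak, 2 a K450R V5 peak (HTR5A and CPLX2) and 1 a WT V5 peak (CPLX2). Of all 724 double-only peaks within 1 kb of a coding start, 28 (3.87%), 3 and 2 did, in the same order. The list and the RE1 search below were chosen with earlier results of these data known.

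RE1 cores under double-only peaks were nearly all outside repeats. The exact core was in 38 of 14012 double-only windows (0.271%, 0.198 to 0.372), 37 of them without a high-copy 24-mer. It was in 5 of 766 shared windows (0.653%, 0.279 to 1.52), 0 of 70 K451R-only windows, 8 of 20141 windows at coding gene starts (0.0397%) and 2 of 28580 grid windows (0.00700%). Of the 38 peaks, 14 were within 1 kb of a coding start, 27 overlapped an EHMT1 peak and 0 an H3K9me2 peak of the same line, and their median fold was 5.19. Over all double-only peaks these shares were 5.16%, 2.47% and 1.19%. With up to 1 mismatch in the 12 fixed letters the core was in 0.864% of double-only and 1.17% of shared windows. The rate was thus not shown to be higher in the double-only than in the shared set.

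The motifs of E2F and MYC were counted near starts and elsewhere. The E2F site GCGGGAA, searched on both strands, was in 43 of 724 double-only windows within 1 kb of a coding start (5.94%, 4.44 to 7.90) and in 5.36% of windows at all coding starts. The E-box CACGTG, bound by MYC and related proteins, was in 28 of the 724 (3.87%, 2.69 to 5.53) and in 5.87% of windows at all starts. Beyond 1 kb of a start, among double-only windows without a high-copy 24-mer, the E2F site was in 4.89% and the E-box in 4.20%. Over all double-only windows the shares were 1.73% and 1.93%, over shared windows 0.783% and 1.17%, and on the grid 0.434% and 1.80%. These windows differed in GC content. Its median was 67.7% in the 724, 63.2% at all starts and 60.2% in the windows beyond 1 kb without a high-copy 24-mer. In shared and grid windows it was 39.8%. The part of GC content in these shares was not tested.

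The other groups lay nearer to the 3.86% of all coding genes or had too few members for a narrow interval. Peaks at the start were found for 4 of 48 glutamate and GABA receptor genes (8.33%, 3.29 to 19.6), among them GRM2, GRM7 and GABRQ at folds of 4.85, 5.43 and 3.80. Protocadherins, adhesion proteins of neurons, had 4 of 66 (6.06%), with PCDHA6, PCDHA9, PCDH9 and PCDHA12, of which the PCDHA genes are close copies. Keratins and keratin-associated proteins had 9 of 149 (6.04%, 3.21 to 11.1), led by the multicopy KRTAP9-4, KRTAP2-4, KRTAP4-6 and KRTAP1-3. Partners of EHMT1 and enzymes of H3K9 had 2 of 34, E2F6 (fold 4.55) and the demethylase gene KDM3A (5.98).

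The groups of the E2F, MYC and growth programmes had intervals that included 3.86%. None of 36 E2F and cell cycle genes had a double-only peak at the start, and a limit of 3 counts allows a share of up to 8.33% (Wilson upper limit 9.64%). None of 28 mTORC1 pathway genes had one, which allows up to 10.7% (Wilson 12.1%). MYC targets had 1 of 27 (3.70%, NOLC1, fold 4.32), WNT pathway genes 1 of 32 (APC, fold 5.71) and hypoxia genes 1 of 25 (4%, KDM3A). Proteasome subunits had 2 of 50 (4%), ribosomal proteins 1 of 86, mitochondrial ribosomal proteins 2 of 78, ubiquitin-specific proteases 1 of 78 and histone genes 1 of 89. HOX genes had 0 of 39, which allows up to 7.69% (Wilson 8.97%).

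The large families gave the narrowest intervals. Zinc-finger genes had a double-only peak at the start in 22 of 566 (3.89%, 2.58 to 5.81), led by ZNF697 (fold 6.67), small GTPase regulators in 7 of 180 (3.89%), solute carriers in 10 of 373 (2.68%, 1.46 to 4.86) and ion channels in 2 of 135 (1.48%, 0.407 to 5.24). Olfactory receptors had 2 of 415 (0.482%, 0.132 to 1.74), an interval wholly below the share of all coding genes. In the gene body, double-only peaks were found in 38 of 66 protocadherins (57.6%), 23 of 48 glutamate and GABA receptors (47.9%), 100 of 566 zinc-finger genes (17.7%) and 10 of 415 olfactory receptors (2.41%). The share over all coding genes was 21.0%. The groups with the highest of these shares are also of long genes, with median lengths of 108 kb and 166 kb for the first pair against 25.8 kb and 2.08 kb for the second pair. Per Mb of gene the 4 groups held 7.62, 3.53, 5.63 and 3.66 peaks, against 5.23 over all coding genes.

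**Figure D5:**
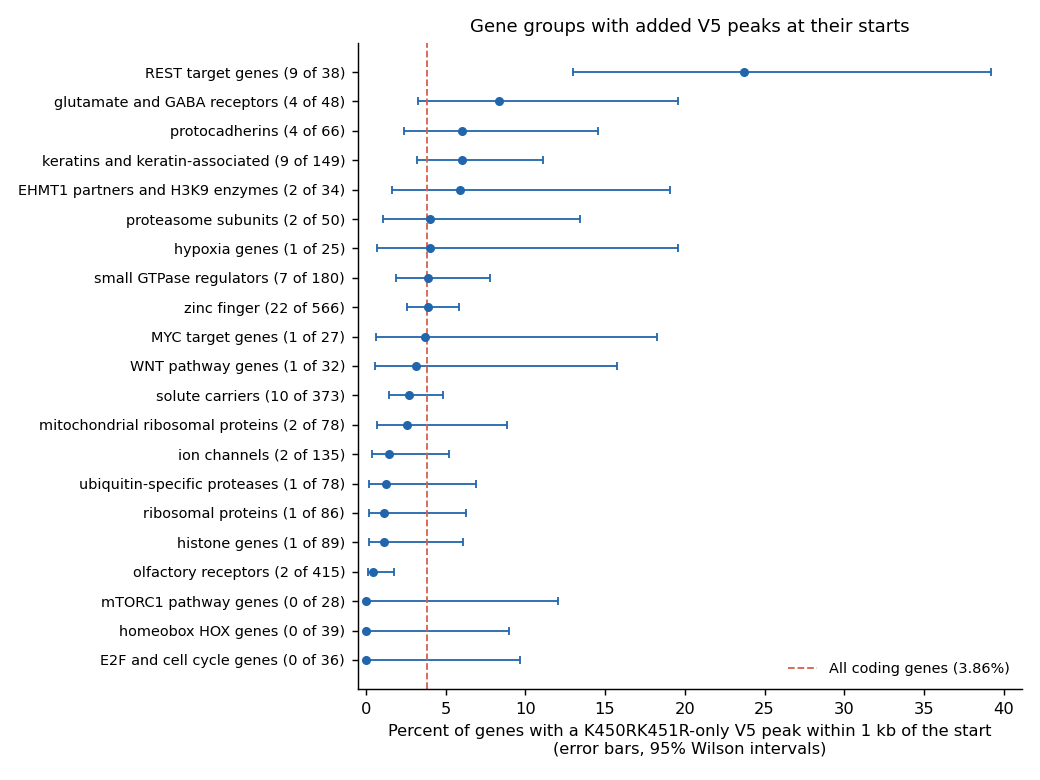
Percent of genes in each group with a double-only V5 peak within 1 kb of the start (points) with 95% Wilson intervals, and the share of all coding genes, 3.86%, as a dashed line. REST targets lie to the right of the line with their whole interval (13.0 to 39.2) and olfactory receptors to the left of it (0.132 to 1.74), and the intervals of the other groups include it.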

How the data were processed

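ChIP-seq peak lists of 4 V5 samples (2 each for EHMT1-K450RK451R and EHMT1-K451R) were analysed, and 7 other lists only for overlaps. Per the study's methods single-end reads were mapped to hg19. The submitters' processing notes name FastQC 0.11.9, BWA 0.7.9a, SAMtools 1.2 and MACS2 2.1.0. The lists were deposited with a fold enrichment (a ratio), a −log10 p, a −log10 q score and a summit for each peak. The authors' use of an input control and of duplicates is not given in the sources used here. Fragments over each summit and the local background were solved from fold and −log10 p, and reads were estimated from the genome-wide background with a 100-bp extension and a 2.7-Gb effective genome, both inferred from the values.

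Genes came from GENCODE 44 mapped to GRCh37, whose nuclear chromosomes match hg19. The 7 mitochondrial double-only and shared peaks were left out of positional counts. Every 24-mer was counted in the genome on both strands, and summit windows (100 bp to either side) with a 24-mer of at least 1000 copies were called high-copy. Bins of 1 Mb with mostly unknown bases were left out, with 244 double-only and 189 shared peaks. Genome shares are of known bases. Wilson, Newcombe and Poisson 95% intervals were computed with Python 3.11.15, numpy 2.4.6, scipy 1.17.1, pandas 2.3.3 and numba 0.67.0. The steps were tested on simulated data.

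Members, gene groups and motifs were chosen with earlier results of these data known. Peaks were named by their rank in −log10 q outside Y, 1 for each nearest gene (8 double-only, 10 at coding starts, 5 in coding exons, 5 shared, 5 shared at starts and 5 K451R-only), the 8 genes with most double-only peaks in the body, the 3 chromosomes with the highest and lowest rates, and up to 4 members of each gene group. NOTCH2, RABGAP1L, SDK1 and the windows with an RE1 core were named after their values were seen. Some items are not reported here. Alternatives were stricter cutoffs, other overlap rules, equal peak numbers, scaled depth, and leaving out repeats, gaps or chromosomes.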

Additional observations from a re-analysis of the deposited data

How the results depend on the processing

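No paired analysis was possible because the replicates of a group share a single list of peaks. Leaving out each replicate was not possible for the same reason, and no other spread limits these values than that of counting. The share of K450RK451R peaks without a K451R peak, 94.8%, was 71.6% with −log10 q ≥ 5, 43.8% with −log10 q ≥ 10, 94.2% at a common −log10 p floor, 92.1% with fold ≥ 5, 28.0% in lists of equal length, 95.3% with 50% reciprocal overlap, 83.5% for peaks callable at the K451R reads, 95.2% on chromosomes 1 to 22 and X, 90.4% without high-copy windows and 98.7% without peaks near assembly gaps. The difference within 1 kb of a coding start, 4.25 points, was 2.63 without peaks near gaps, where its interval included 0, and otherwise kept its side. The difference in coding genes, 37.7 points, kept its direction and an interval above 0 in all 14 alternatives. The difference in median coding starts within 500 kb, 4, was 3 with −log10 q ≥ 5, for callable peaks and without high-copy windows, 2 with −log10 q ≥ 10 and in lists of equal length, 1 within 100 kb, 7 within 1 Mb and -1 without peaks near gaps. The difference in high-copy windows, 25.5 points, was 2.98 for 24-mers found at least 100 times (interval including 0) and turned to -17.5 with −log10 q ≥ 10 and -13.6 in lists of equal length, so that among the strongest peaks the shared ones held more repeats. The rank correlation across chromosomes, -0.12, was 0.11 with −log10 q ≥ 10, -0.25 with fold ≥ 5, -0.017 in lists of equal length, 0.042 without high-copy windows and 0.029 without peaks near gaps. Chosen after seeing the data were 2 more alternatives. Without high-copy windows and gaps together the share was 96.1%, the coding start difference -2 and the rank correlation 0.25. For callable peaks on chromosomes 1 to 22 and X the share was 84.4% and the rank correlation -0.00099. The causes were not tested.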
